A study of Mus musculus with 2 samples.

Results

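The Notch pathway genes described here are 10 genes chosen by name: the receptors Notch1, Notch2 and Notch3, the ligands Jag1, Jag2 and Dll1, the target genes Hes1, Hey1 and Nrarp, and Adam10, the protease that cuts ligand-bound receptors. Every probe of the array annotated with one of these symbols was taken, which gave 11 of the 25697 probes and 10 of 17871 genes. Each gene had 1 probe except Notch2, which had 2. The RNA came from keratinocytes, the main cells of the epidermis, taken from skin of mice aged 3 months. Trypsin at 0.25% was used for both groups. The control group, labelled VDR CON, carried floxed alleles of the vitamin D receptor gene (VDR fl/fl), and the group labelled VDR KO carried the same floxed alleles together with a Cre recombinase driven by the keratin 14 (K14) promoter. All mice were kept on low calcium diet, and the groups were littermates. Each group was measured on 1 Illumina bead array that held RNA pooled from 3 mice, so that no difference below has a replicate check and no test was possible. The K14 promoter drives Cre in basal keratinocytes and in the outer root sheath of the hair follicle, and their progeny inherit the recombined allele, while pigment and immune cells of the epidermis do not express Krt14.

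Notch receptors are transmembrane proteins that bind ligands of the Jagged and Delta families on a neighbouring cell. Ligand binding exposes a site that Adam10 cuts, gamma-secretase then releases the intracellular part of the receptor, and this part joins the DNA-binding protein Rbpj and a Mastermind protein to switch on genes such as Hes1, Hey1 and Nrarp. In the epidermis this pathway is known for moving basal cells towards differentiation, and in the hair follicle for keeping the identity of its inner layers.

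Signals are given as deposited normalized signals on a linear scale, first for VDR CON and then for the array labelled VDR KO. A fold or log2 difference is from background-corrected signals unless it is said to be deposited, because the deposited signals keep the background and shrink differences of dim probes. A probe was called detected when its detection p-value, reassigned by signal rank, was under 0.05, which held for 11994 probes on the VDR CON array and 12147 on the other. The targeted gene did not check the labels: the Vdr probe with the highest signal read 2626 against 2928, a log2 difference of 0.17, and the other probes were at 0.23 and 0.77. Which exon was removed and where these probes lie were not analysed here. Transcript that lacks only the floxed part can still bind such probes, so every direction below rests on the genotype label. The female-specific RNA Xist was 2.22-fold higher by its stronger probe on the array labelled VDR KO, and the Y-linked gene Ddx3y was 7.87-fold lower (deposited folds 1.95 and 3.58). The labels give no sex for the pooled mice, and the part of this difference in the Notch values was not tested.

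The promoters of members that were lower on the array labelled VDR KO are shown to let the letters be read beside the values. The RefSeq promoter table of the mouse build GRCm38.p6 matched 8 of the 10 genes with 9 promoters, Dll1 having 2. The target genes Hes1 and Hey1 were not matched. The 250 bases before the annotated start are given for the receptors Notch1 and Notch3, the ligand Jag2 and the target Nrarp, which are the matched and lower members other than Dll1, 5′ to 3′ along each gene. Capitals mark matches to the N-box CACNAG on either strand, a motif bound by Hes proteins, which are repressors.

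Notch1, chr2:26503823-26504072, minus strand:
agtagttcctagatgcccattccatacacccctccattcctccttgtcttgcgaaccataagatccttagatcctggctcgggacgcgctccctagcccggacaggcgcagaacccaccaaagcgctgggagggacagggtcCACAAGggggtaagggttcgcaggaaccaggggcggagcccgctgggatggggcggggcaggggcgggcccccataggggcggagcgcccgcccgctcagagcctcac
Notch3, chr17:32166891-32167140, minus strand:
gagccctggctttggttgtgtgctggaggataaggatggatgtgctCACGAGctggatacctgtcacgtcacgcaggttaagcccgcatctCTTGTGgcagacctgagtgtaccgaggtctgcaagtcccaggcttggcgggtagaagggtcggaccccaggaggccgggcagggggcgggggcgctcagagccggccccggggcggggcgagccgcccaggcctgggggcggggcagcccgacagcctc
Jag2, chr12:112929496-112929745, minus strand:
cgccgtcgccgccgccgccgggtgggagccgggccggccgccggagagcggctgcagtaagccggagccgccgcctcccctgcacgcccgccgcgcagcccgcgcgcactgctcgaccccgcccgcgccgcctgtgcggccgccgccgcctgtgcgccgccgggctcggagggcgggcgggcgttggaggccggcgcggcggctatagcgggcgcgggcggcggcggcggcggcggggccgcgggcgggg
Nrarp, chr2:25180508-25180757, plus strand:
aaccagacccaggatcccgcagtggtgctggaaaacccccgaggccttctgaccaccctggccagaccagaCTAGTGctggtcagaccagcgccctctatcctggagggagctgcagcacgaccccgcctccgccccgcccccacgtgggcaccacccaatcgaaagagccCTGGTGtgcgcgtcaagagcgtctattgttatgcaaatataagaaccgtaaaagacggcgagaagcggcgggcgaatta

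N-box matches stood at position -108 of Notch1, at -204 and -159 of Notch3 and at -179 and -79 of Nrarp, counted back from the start to the first base of the match. In all, 4 of the 9 member promoters held an N-box, against 36.7% of 32851 mouse promoters of the same length. The one not shown is that of Notch2, with a match at -247, a gene detected on neither array. Dll1, also lower, is not shown either, and neither of its windows held an N-box. The core of the Rbpj site, TGGGAA, was searched on both strands and was in 0 of the 9 windows, against 21.6% of all promoters. Hes1 and Hey1 had no window, so Nrarp was the only target gene searched. The nuclear receptor half-site AGGTCA, a form of the sequence that the vitamin D receptor binds, was in 1 of the 9, a Dll1 promoter, at -109, against 14.0% of all. The E-box CANNTG was in 5 of the 9 against 66.2% of all, once in Nrarp, and it overlapped no N-box in these windows. The Jag2 window held none of the motifs searched. A match is a run of letters and not a measured binding site, and a window without one says only that these letters were not in it.

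Both receptors that were detected were lower on the array labelled VDR KO. Notch1, the main receptor studied in epidermis, had a deposited signal of 1654 on the VDR CON array and 1350 on the array labelled VDR KO. It was thus 1.26-fold lower, a log2 difference of -0.34 (deposited -0.29). Notch3, a receptor also known from vascular smooth muscle, read 1478 against 1157, which was 1.35-fold lower, a log2 difference of -0.43 (deposited -0.35). In bulk RNA, fewer cells of a type and less RNA per cell cannot be told apart. Notch2 was detected on neither array by either probe. Its probes read 163.1 against 146.7 and 142.5 against 134.9, close to the fitted background, whose mean was 143.2 on the VDR CON array and 140.9 on the other before normalization. No level of Notch2 can therefore be given from these arrays.

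**Figure D1:**
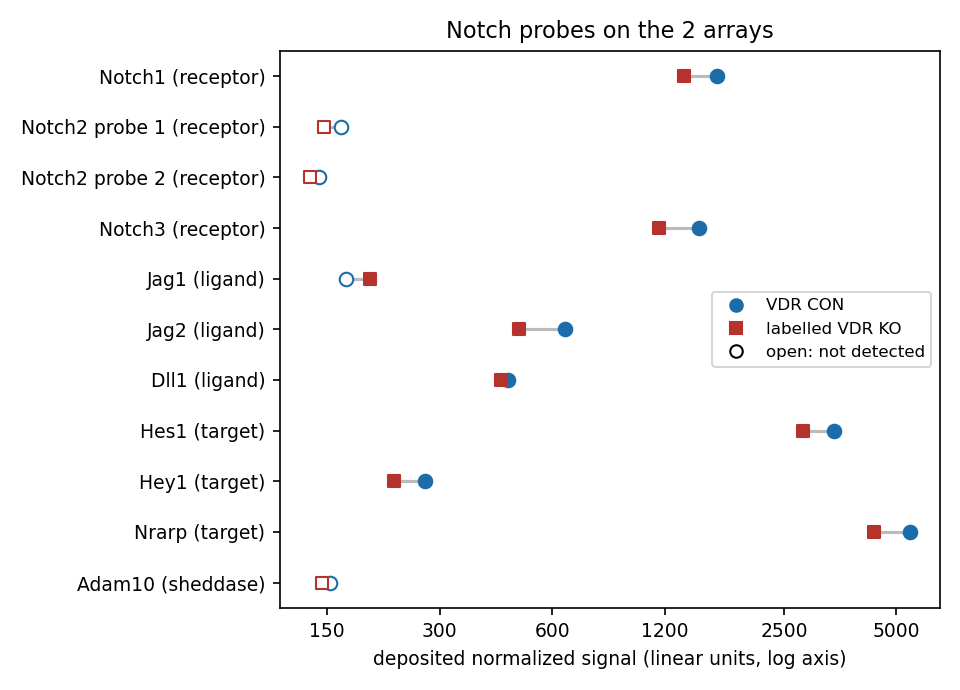
Deposited normalized signal of each of the 11 Notch probes (log axis) on the VDR CON array (circles) and on the array labelled VDR KO (squares), with the role of the gene in brackets. Filled symbols mark detected probes. Notch1, Notch3, Jag2, Hes1, Hey1 and Nrarp lie to the left on the array labelled VDR KO, Dll1 hardly moves and Jag1 lies to the right.

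The ligands did not share a direction. Jag2, a ligand of the Jagged family, read 650.2 on the VDR CON array and 489.3 on the array labelled VDR KO. It was 1.53-fold lower, with a log2 difference of -0.62 (deposited -0.41, or 1.33-fold), the widest deposited difference among the detected members. Dll1, a Delta ligand known in human epidermis for its place on clusters of stem cells, read 458.3 against 437.3. Its log2 difference of -0.12 (deposited -0.07) was small beside those of the receptors and Jag2. Jag1, the other Jagged ligand, read 168.5 against 195.9 and was detected on the array labelled VDR KO alone. The background model put it at 1.25-fold higher or more, which is no minimum beyond that model, since the deposited values gave 1.16-fold. Its measured log2 difference was 0.52, but 0.22 in the deposited values. Jag1 entered the detected genes only through the array on which it was higher, so its direction was part of how it passed.

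All 3 target genes were lower on the array labelled VDR KO. Nrarp encodes a small protein that is switched on by Notch and limits Notch signalling in return. Its deposited signal was 5426 against 4364, which was 1.26-fold lower, a log2 difference of -0.33 (deposited -0.31). Hes1 encodes a repressor that carries out many effects of Notch, and it read 3398 against 2819, 1.23-fold lower, with a log2 difference of -0.30 (deposited -0.27). Hey1, a related repressor, read 274.8 against 227.1. It was 1.54-fold lower with the background removed, a log2 difference of -0.62, and 1.21-fold lower in the deposited values (-0.28). The background accounted for most of the Hey1 signal, so the size of its fold depended on how the background was removed, while Nrarp and Hes1 differed by nearly the same amount on both scales.

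Adam10 was detected on neither array, with deposited signals of 152.5 and 145.7 for its single probe. The related protease gene Adam17, which can also cut Notch receptors, was detected on both arrays and read 1197 against 1194, a log2 difference of -0.0044.

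Of the 10 members, 8 were detected on at least 1 array and 7 on both. Among the 8, 0 were at least 2-fold apart, where 2.39% of all 9547 detected genes were (228 genes, 106 of them lower). Lower values on the array labelled VDR KO were seen for 7 of the 8, where 50.3% of all detected genes were lower. Their median log2 difference was -0.33, against -0.0016 over all detected genes. These counts describe 2 arrays, and the list was named with earlier results of the same arrays known.

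Differences vary more among dim genes than among bright ones, so each member was also placed among the genes of like signal, in 5 signal classes of the 8393 genes detected on both arrays. In the brightest class of 1679 genes, 3.39% had a lower difference than Nrarp and 5.36% had a lower one than Hes1. In the next class, 3.22% of 1678 genes had a lower difference than Notch3 and 6.50% a lower one than Notch1. Jag2 stood with 2.74% of its class below it and Hey1, in the dimmest class, with 7.15%. Dll1 lay inside the bulk of its class, with 36.7% below it. With the deposited values the shares below were 3.16% for Nrarp, 5.96% for Hes1, 3.52% for Notch3, 6.02% for Notch1, 2.74% for Jag2 and 6.49% for Hey1. These shares are ranks within 1 pair of arrays and measure no replicate error.

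**Figure D2:**
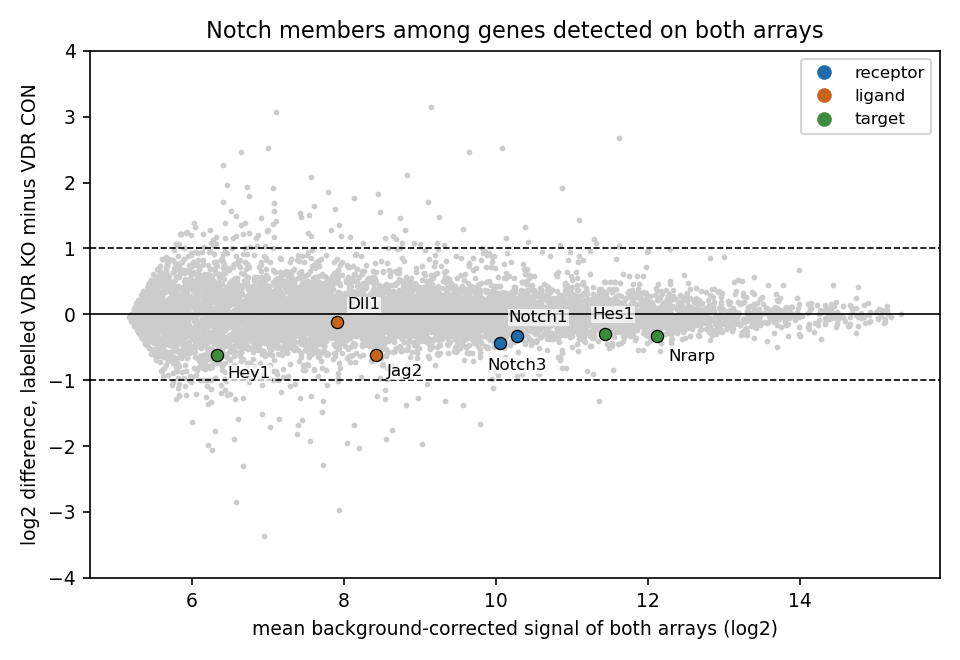
Log2 difference (array labelled VDR KO minus VDR CON) against mean background-corrected signal (log2) for the 8393 genes detected on both arrays (grey) and 7 Notch members (coloured by role). Dashed lines mark 2-fold. All 7 lie below 0 and inside the 2-fold lines, and the cloud narrows towards bright genes.

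The differences of the bright members moved little with the processing. Over 9 ways of processing, of which detection on both arrays gave no value for Jag1, the log2 difference ranged from -0.36 to -0.29 for Notch1, from -0.48 to -0.35 for Notch3, from -0.31 to -0.27 for Hes1 and from -0.35 to -0.31 for Nrarp. The dimmer members had wider ranges, from -0.68 to -0.41 for Jag2, from -0.66 to -0.24 for Hey1, from -0.16 to -0.07 for Dll1 and from 0.13 to 0.52 for Jag1. No detected member changed direction in any setting that gave it a value, but most settings could not change it. After quantile normalization the direction follows from a probe's signal rank on each array, which background correction and offsets keep. The deposited values, alike between the arrays once sorted, have nearly the same limit, which leaves median scaling as the setting free to change a direction. For members whose single probe was detected on both arrays, 3 of the alternatives (no detection filter, detection on both arrays and the mean of probes) return the reported value by construction.

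**Figure D3:**
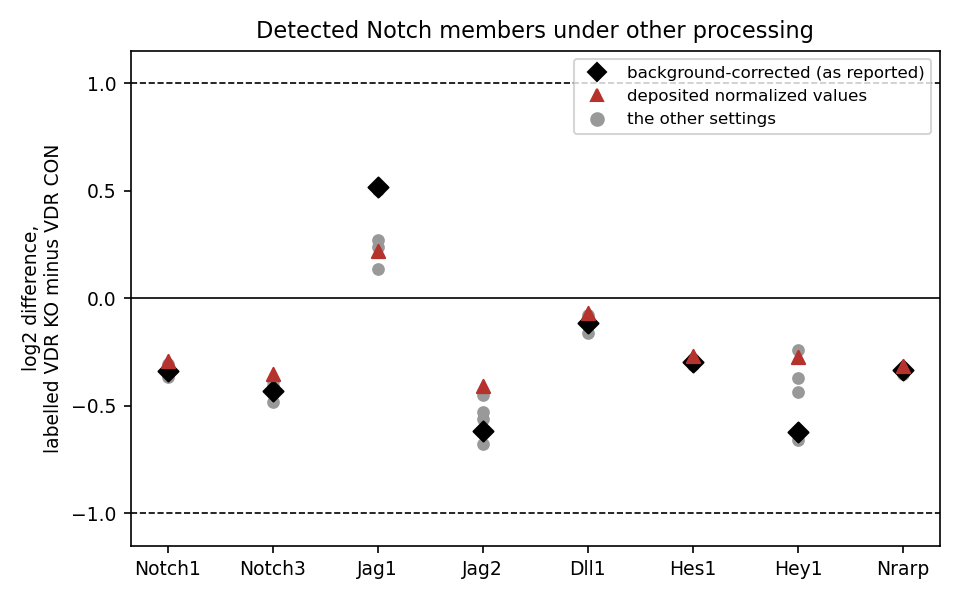
Log2 difference of the 8 detected members under the reported processing and its alternatives (9 settings, and 8 for Jag1). Diamonds are the background-corrected values reported here, triangles the deposited normalized values and circles the other settings, and dashed lines mark 2-fold. Notch1, Notch3, Hes1 and Nrarp hold nearly the same value throughout, and Hey1, Jag1 and Jag2 spread.

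The rest of the pathway lay on both sides of 0. Of 68 further pathway genes, 63 had a probe and 44 were detected. Among them 20 were lower and 24 higher on the array labelled VDR KO, where 50.3% of all detected genes were lower. Of the 44, 0 were 2-fold apart in either direction, where 2.39% of all detected genes were. Their median log2 difference was 0.03. From each role group the detected genes with the largest differences are named.

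Among other receptors and ligands, only 2 of 6 were detected. Dlk2, a membrane protein related to the Delta ligands, read 1424 against 1288 (log2 difference -0.18), and the receptor Notch4 was detected on the array labelled VDR KO alone (171.4 against 185.6). The background model put Notch4 at 1.09-fold higher or more, which is no minimum beyond that model, since the deposited values gave 1.08-fold. The direction of Notch4 was part of how it passed, and its other probe, detected on neither array, was at -0.03. Dll3, Dll4, Dlk1 and Dner were not detected. Of the 7 other Hes and Hey genes only Hes6, a family member that counteracts Hes1, was detected. The Hes6 probe with the highest signal read 507.5 against 388.5, a log2 difference of -0.63 (deposited -0.39), and of its other probes one was lower (-0.48) and one higher (0.72), each detected on 1 array alone. Hes6 is thus uncertain in direction.

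In the nuclear complex and its corepressors, 10 of 16 genes with a probe were detected, 4 lower and 6 higher, with a median of 0.06. Rbpj, through which Notch acts on its targets, was not detected by any of its 3 probes. Maml1, a Mastermind coactivator, was higher (310.5 against 386.4, log2 difference 0.56, deposited 0.32). Tle3, a Groucho-type corepressor that Hes proteins recruit, read 303.6 against 222.8 by its strongest probe, a log2 difference of -0.98 (deposited -0.45). The other Tle3 probes gave -0.55 and 0.48, so the probes of Tle3 disagreed.

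Of 5 detected genes for receptor glycosylation and furin cleavage 1 was lower and 4 were higher, with a median of 0.16, or 0.06 with Lfng at its bound. Poglut1, which adds glucose to the receptor, read 969.9 against 1105 (0.24), and Lfng, a Fringe enzyme that tunes ligand choice, was detected on the array labelled VDR KO alone (164.8 against 181.8), so that its direction was part of how it passed. Of 7 detected genes for gamma-secretase and Adam17, 4 were lower and 3 higher, with a median of -0.0044. The subunit genes Psen2 (246.8 against 291.0, log2 difference 0.49, deposited 0.24) and Aph1a (346.9 against 422.5, 0.48, deposited 0.28) were higher. The other Aph1a probe, detected on neither array, was at 0.01.

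Genes for endocytosis and turnover of ligands and receptors were detected in 12 of 13 cases, 4 lower and 8 higher, with a median of 0.05. Neurl1b, a ubiquitin ligase that acts on ligands, read 503.6 against 726.8, a log2 difference of 0.78 (deposited 0.53). Dtx4, a Deltex ubiquitin ligase, read 199.5 against 239.5 (0.63, deposited 0.26), while its other detected probe was at 0.06. Of 7 other genes reported to respond to Notch in keratinocytes, all were detected, 5 lower and 2 higher, with a median of -0.11. Ccnd1, encoding cyclin D1 of the cell cycle, read 5238 against 3998, a log2 difference of -0.41 (deposited -0.39), and its other probes gave -0.41 and -0.59. Myc, a growth regulator, was at 0.33 (309.3 against 349.8, deposited 0.18). Cdkn1a, a cell cycle inhibitor known as a Notch target in mouse keratinocytes, was outside the naming rule and was named after its value was seen. The brightest of its 3 probes read 8380 against 9684, a log2 difference of 0.21, and its other probes are not given here.

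**Figure D4:**
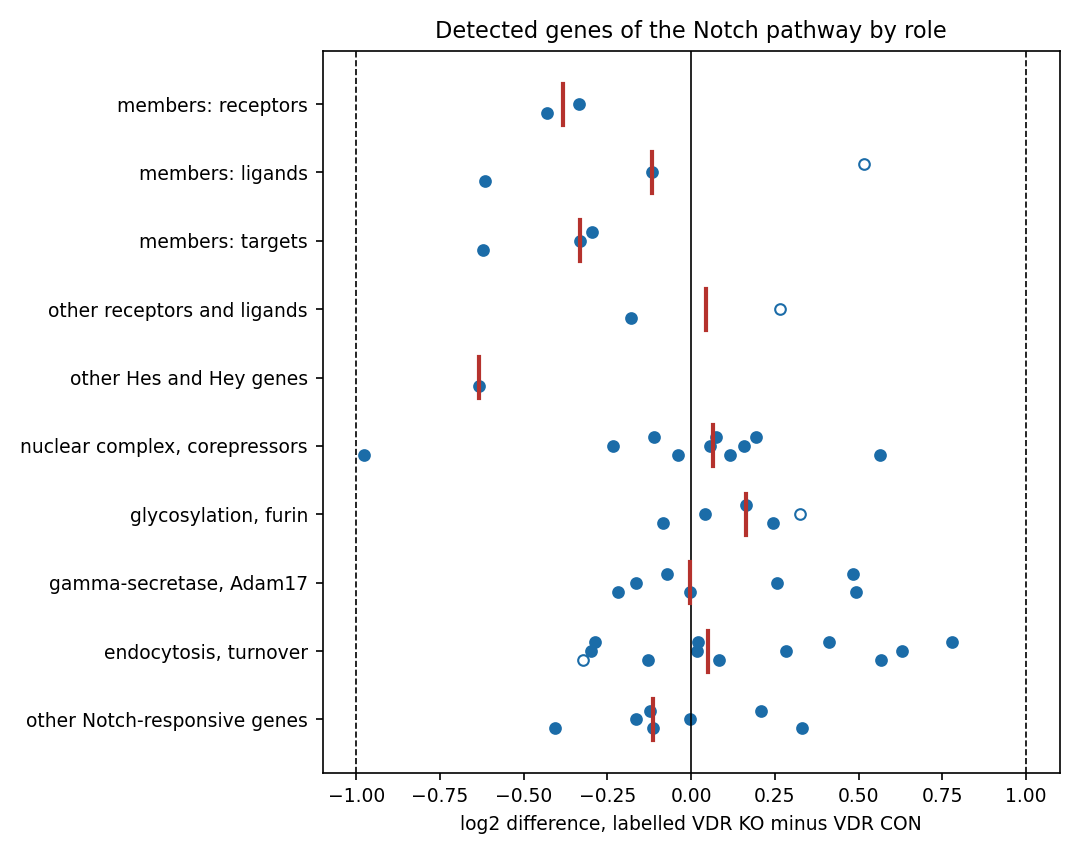
Log2 difference of each detected Notch pathway gene by role, with the members in the upper 3 rows. Filled points were detected on both arrays, open points on 1 array, where the measured difference is shown. Red bars are medians and dashed lines mark 2-fold. The medians of the member receptors, ligands and targets are -0.38, -0.12 and -0.33. Those of the other groups run from -0.63, where Hes6 is the only gene, to 0.16 for glycosylation and furin, with -0.11 for the other Notch-responsive genes.

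Markers of other cell types differed between the arrays beside the Notch genes. Of all 9547 detected genes, 50.3% were lower on the array labelled VDR KO. At least 2-fold apart in either direction were 2.39% of them, and 44 genes in the deposited values. All 8 detected markers of the inner root sheath and hair shaft, hair layers in which Notch is active, were lower on the array labelled VDR KO, 4 of them at least 2-fold and 1 in the deposited values. Their median was -1.48, or -1.26 with bounds, and 3 of them (Krt25, Krt35 and Hoxc13) were detected on the VDR CON array alone, so that their direction was part of how they passed. Their summed deposited signal was 6801 against 5613, and Padi3 and Msx2 were not detected. The inner root sheath keratin Krt71 read 467.1 against 177.1, while Gata3, a transcription factor of that layer and of the epidermis, read 4619 against 4362. Of 5 detected melanocyte markers 4 were detected on the VDR CON array alone, with the same limit, and Dct, the only one detected on both arrays, was lower (619.5 against 182.4). The sum of the 5 was 1533 against 756.2, 2 were at least 2-fold lower and 1 in the deposited values, and Tyr and Mitf were not detected. All 3 detected fibroblast markers were lower (884.0 against 647.6 in sum), Col1a1 being detected on the VDR CON array alone. Of these, 1 was at least 2-fold lower, Dcn (348.4 against 181.1, log2 difference -2.07), and 0 in the deposited values. Col1a2, Col3a1, Lum and Pdgfra were not detected. Both detected markers of vascular smooth muscle and pericytes, cells known for Notch3, were lower, Acta2 at -0.49 and Cspg4 at -0.50, with a sum of 749.0 against 620.9, and the defining markers Rgs5, Pdgfrb and Myh11 were not detected. The part of these cell types in the Notch differences was not tested.

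Markers of the labelled cell type were detected on both arrays, with Krt14, the keratin of basal cells, at 33596 against 32868 and Krt10, the keratin of the layers above, at 32223 against 34643. Of 6 basal markers 5 were lower, with a median of -0.16, where 50.3% of all detected genes were lower. Krt15 and Krt5 were at -0.37 and -0.28, sizes near those of the bright Notch members, Krt14 was at -0.03 and the integrin Itga6 at 0.55. Of 5 detected suprabasal markers 2 were lower and 3 higher, with a median of 0.06. Langerhans cell markers went the other way, 4 of 4 detected ones being higher, where 4728 of all 9547 detected genes were higher. At least 2-fold higher were 2 of the 4, where 2.39% of all detected genes were 2-fold apart in either direction. In the deposited values 0 of the 4 were, where 44 of all detected genes were. The sum of these 4 markers was 4191 against 7389. H2-Aa and Itgax of that list were not detected. Of 4 detected T cell markers 3 were lower (median -0.16, sum 2484 against 2310, Ptprc not detected). Of 3 endothelial markers, each detected on 1 array alone, 1 was lower (sum 544.4 against 534.9), and Pecam1, Cdh5, Kdr and Cldn5 were not detected. Whether shifts in these cell types touch the Notch values was not tested.

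**Figure D5:**
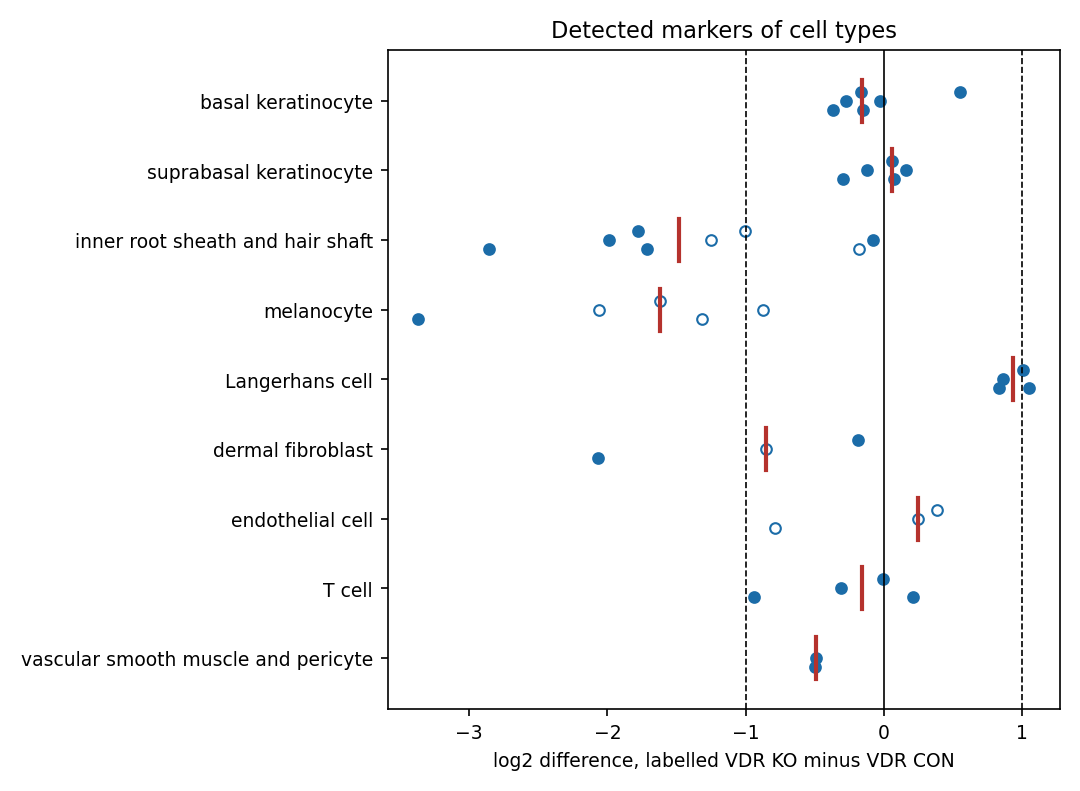
Log2 difference of the detected markers of each cell type. Filled points were detected on both arrays, open points on 1 array, red bars are medians and dashed lines mark 2-fold. Hair layer and melanocyte markers lie to the left with medians of -1.48 and -1.62 (-1.26 and -0.93 with bounds for genes detected on 1 array), and Langerhans cell markers to the right at 0.93. The medians of basal and suprabasal keratinocyte markers are -0.16 and 0.06, with basal markers spread from -0.37 to 0.55.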

How the data were processed

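Average bead signals of 2 Illumina arrays were deposited as intensities on a linear scale, made with GenomeStudio 2011.1 per the submitters' processing notes. Once sorted, the authors' normalized intensities matched between the arrays with gaps of at most 0.3 units. Their method is not given in the sources used here, and the deposited series value table was identical to them. The deposited detection p-values were out of step with the signals of their rows (Spearman's rho -0.0053 and -0.0073), so they were reassigned on each array by signal rank, the smallest to the brightest probe.

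Differences were computed from the non-normalized intensities with limma 3.58.1 in R 4.3.3: normexp background correction through the reassigned p-values, an offset of 16, log2 and quantile normalization. The step was tested on simulated data, but only for probes well above background. That test therefore does not cover dim members such as Jag1 and Hey1. A gene was detected with p under 0.05 on at least 1 array and was represented by its brightest detected probe. A gene detected on 1 array alone has a bound, which holds only under this background model and enters the 2-fold counts and bounded medians, set against the higher of the dim signal and the lowest detected signal of that array. Names were updated through the RefSeq table of GRCm38.p6, which matched by Entrez number (16938 probes), accession (7420), symbol (465) or synonym (553), while 321 kept the name in the file.

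Groups came from the genotype labels. With 1 array per group no test or interval exists, and the number of arrays limits the precision. Named were all members, and in each other pathway group the 2 detected genes with the largest difference, with exceptions marked in the text. The members, lists and alternatives were chosen with earlier results of these data known. No genes were named for a pattern like that of a member, since 2 arrays give only 1 difference per gene.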

Additional observations from a re-analysis of the deposited data

How the results depend on the processing

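The alternatives were no background correction, normexp without detection p-values at an offset of 50, an offset of 50 with them, the deposited normalized values, median scaling, no detection filter, detection on both arrays, and the mean of a gene's detected probes. Over them the median log2 difference of the detected members ranged from -0.36 to -0.28, and 0 members were 2-fold apart under each. In 7 alternatives 7 members were lower, and without the detection filter 9 of 10 were, Notch2 (-0.30) and Adam10 (-0.12) included. For the same members the quantile-normalized alternatives had to give the same count, since signal ranks set the direction. The number of all genes at least 2-fold apart, 228 as reported, was 47 without background correction and 44 in the deposited values. It was 89 with normexp without detection p-values and an offset of 50, and 112 with an offset of 50 alone. Each of these settings keeps the background or adds a larger offset, which shrinks log2 differences, those of dim probes most. Under median scaling 1 gene of the wider pathway passed 2-fold, Tle3 at -1.02, where 0 did as reported, and the median over all detected genes moved to -0.04. No paired analysis was possible because each group has 1 array. Signals near the fitted background limit Notch2, Adam10, Jag1 and Hey1, and with no replicate arrays the error of every difference is unknown.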
